A study of Mus musculus with 115 samples.

Results

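The cytosolic sulfotransferases are enzymes of the Sult gene family. The genes described here are Sult1a1, Sult1b1, Sult1c1, Sult1c2, Sult1d1, Sult1e1, Sult2b1, Sult3a1 and Sult5a1, taken as every probe with 1 of these symbols in the array tables of liver and of inguinal fat. They came to 9 of 18120 genes, and to 14 of the 25697 probes in each table. Of these, 6 genes (8 probes) in liver and 4 genes (6 probes) in inguinal fat were detected in enough arrays to be tested. RNA was read on 1-colour Illumina BeadChips, with 60 arrays of liver and 55 of inguinal fat. The mice were on a C57BL/6J background, from a model (FCG) in which Sry, the gene that sets off testis development, is missing from the Y chromosome (written Y-) and can be present as an autosomal transgene. XX and XY- mice lack Sry and form ovaries, and XXSry and XY-Sry mice carry it and form testes, so these are called the ovary and the testis line below. All of them, controls included, had their gonads removed at 75 days of age and received a Silastic capsule that was blank (B), held testosterone (T, 5 mM) or held 17beta-estradiol (E, 50 µg), and tissue was taken 3 weeks later. The 4 genotypes and 3 treatments made 12 groups per tissue, of 5 arrays each in liver and of 3 to 5 in fat.

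Cytosolic sulfotransferases move a sulfate group from the donor PAPS onto small molecules such as phenols, catecholamines, thyroid hormone, steroids and bile acids. The product is more soluble in water, usually less active, and is more easily excreted, and the liver is a main site of this step. Several members are known to differ between the sexes in rodent liver.

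Levels are log2 intensities after background correction, addition of 16 and quantile normalisation, so differences of dim probes are understated. A probe counts as detected in an array where its deposited detection p was under 0.01, and as called where limma's adjusted p (by Benjamini-Hochberg, across every probe tested in that tissue) was under 0.05. Between 31.8% and 41.0% of probes were detected per liver array, and between 40.3% and 49.0% per fat array. The mean of 8 hepatocyte markers ran from 12.4 to 13.0 in liver, and that of 7 adipocyte markers from 10.3 to 12.0 in fat. Markers of other tissues varied widely between fat arrays. The mean of 6 skeletal muscle markers ran from 5.89 to 14.5, of 7 lymphocyte markers from 4.99 to 10.8 and of 6 hepatocyte markers from 5.26 to 14.1. Their part in the fat levels was not tested beyond the alternative with marker covariates. In liver, XY-Sry T replicate 5 had Eif2s3y, a gene of the Y chromosome, at 4.53, against 6.76 to 8.14 in the other arrays labelled XY-. Its Xist level was 5.97, against 5.90 to 7.47 in arrays labelled XX and 4.43 to 5.75 in the others labelled XY-. The liver array XY- E replicate 5 had Hsd3b5, an androgen-dependent liver gene, at 12.3, while the remaining estradiol arrays ranged from 4.50 to 11.2. The testosterone arrays of liver ranged from 11.1 to 12.9. XX E replicate 1 of liver had the lowest median correlation with its own group of all liver arrays, 0.936. The fat array XX E replicate 1 carries testosterone in 1 label field and estradiol in the others and was kept as estradiol. Its Greb1 level of 9.22 lay inside the 9.13 to 9.30 of the other XX E arrays. The labels do not say whether each array is 1 animal, so p-values measure the spread between these arrays. Fewer cells of a type and less RNA per cell cannot be told apart in such samples.

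Probe sequences were not used here. To show the genes whose liver level fell under testosterone, the 250 bases before their RefSeq transcription start are printed from the RefSeq promoter table (GRCm38.p6), 5′ to 3′ on the strand of the gene as that table gives it. Capitals mark matches on either strand to 1 of 5 motifs. These were AGGTCA, a core motif of several nuclear receptors, AGAACA, a core motif of androgen and glucocorticoid receptors, TTCNNNGAA, the core of STAT factor sites, TGANTCA, the AP-1 site, and the estrogen response element.
Sult3a1, chr10:33857472-33857721, plus strand: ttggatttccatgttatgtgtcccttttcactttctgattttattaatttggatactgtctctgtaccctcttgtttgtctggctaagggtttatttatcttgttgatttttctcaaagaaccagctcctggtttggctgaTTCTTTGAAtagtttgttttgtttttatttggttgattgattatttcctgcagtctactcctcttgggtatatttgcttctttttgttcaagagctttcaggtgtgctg
Sult1a1, chr7:126676419-126676668, minus strand: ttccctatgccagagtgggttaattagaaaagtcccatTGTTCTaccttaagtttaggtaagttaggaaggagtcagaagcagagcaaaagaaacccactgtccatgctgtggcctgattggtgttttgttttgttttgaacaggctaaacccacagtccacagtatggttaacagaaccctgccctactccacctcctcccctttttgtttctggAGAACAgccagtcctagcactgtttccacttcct
Sult1c2, chr17:53845959-53846208, minus strand: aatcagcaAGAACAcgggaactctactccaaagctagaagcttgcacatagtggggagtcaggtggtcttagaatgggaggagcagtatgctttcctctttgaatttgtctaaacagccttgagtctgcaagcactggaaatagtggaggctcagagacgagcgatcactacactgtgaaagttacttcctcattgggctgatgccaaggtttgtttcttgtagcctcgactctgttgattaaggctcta
Sult1d1, chr5:87569007-87569256, minus strand: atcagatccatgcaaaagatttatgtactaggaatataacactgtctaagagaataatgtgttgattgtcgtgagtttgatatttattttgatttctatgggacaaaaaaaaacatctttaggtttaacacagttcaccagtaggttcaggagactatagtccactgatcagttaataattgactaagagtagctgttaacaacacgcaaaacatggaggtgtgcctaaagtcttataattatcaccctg

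Among all 32851 RefSeq windows of this length, AGGTCA was found in 14%, AGAACA in 16.1%, TTCNNNGAA in 7.02%, TGANTCA in 6.75% and the estrogen response element in 0.0639%. Sult3a1 held 1 match to TTCNNNGAA, which began 109 bases before the start. Sult1a1 held 2 matches to AGAACA, 212 and 34 bases before the start, and Sult1c2 held 1, 242 bases before the start. Sult1d1 and Sult5a1 held none of the 5 motifs, which says only that these letters are not in the window. A match is a description of the letters and not a site. Of the members with little or no signal in liver, Sult1e1 held 1 AGGTCA and Sult1c1 held 1 AGAACA and 1 TGANTCA. Sult1b1 and Sult2b1 have 2 windows each. Sult1b1 held 1 AGGTCA in 1 window and 1 AGAACA in the other, and Sult2b1 held 1 TGANTCA in 1 window.

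Sult3a1, an amine sulfotransferase known as a gene of female mouse liver, had the widest range of the family. With blank capsules its level was 7.90, 6.59, 7.62, 8.36 and 6.75 in the 5 XX livers and 7.47, 8.47, 7.41, 7.87 and 7.16 in the 5 XY- livers. In the testis line it was 4.98, 4.97, 4.82, 4.53 and 4.75 in XXSry and 4.46, 4.59, 4.83, 4.72 and 4.46 in XY-Sry. It was thus detected in all 10 arrays of the ovary line and in none of the 10 of the testis line, and the lines did not overlap. Means were 7.44 ± 0.76 (SD, n = 5) for XX, 7.68 ± 0.51 for XY-, 4.81 ± 0.18 for XXSry and 4.61 ± 0.16 for XY-Sry. The testis line was lower by at least 4.02-fold, measured against the lowest signal that the dim arrays still detected. The fitted difference was -2.85 ± 0.24 (SE; limma adjusted p = 1.05e-12), and 1.75% of all tested liver probes were called in this comparison. On each of the 5 slides that held blank arrays of both lines the difference was negative, from -3.43 to -2.22. Over the alternatives in processing it lay between -2.93 and -1.21, the latter without background correction, and was called in each.

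With testosterone, Sult3a1 was detected in 0 of 20 livers, and its level ran from 4.34 to 4.67 in the ovary line and from 4.41 to 4.90 in the testis line. In the ovary line that is at least 3.99-fold lower than with blank capsules. In the testis line neither treatment was above background, so no fold is given there. Over the 4 genotypes testosterone minus blank was -1.59 ± 0.17 (SE; limma adjusted p = 1.8e-10; 19.1% of all tested probes called). The hormone's effect differed between the lines by 2.89 ± 0.35 (testis minus ovary line; limma adjusted p = 1.27e-07; 0.124% called). This difference rests on the level in ovary line blanks, since the other 3 sets of arrays were all below background.

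With estradiol, Sult3a1 was detected in both lines. The level was 8.54, 7.98, 7.72, 7.52 and 7.02 in XX, 7.09, 6.81, 7.23, 7.07 and 6.39 in XXSry, and 6.69, 6.67, 6.39, 6.85 and 5.48 in XY-Sry. In XY- it was 8.45, 5.45, 6.59, 7.44 and 4.75, and the arrays at 5.45 and 4.75 were not detected. The array at 4.75 is XY- E replicate 5, whose Hsd3b5 lay above that of the other estradiol arrays, and without it the XY- mean rises from 6.54 ± 1.49 (SD, n = 5) to 6.98 ± 1.28 (n = 4). All 10 testis line livers with estradiol lay above all 10 with blank capsules, and their mean was at least 2.16-fold higher. In the testis line the difference was 1.95 ± 0.24 (SE), and in the ovary line it was -0.41 ± 0.24. The difference between these was 2.37 ± 0.35 (limma adjusted p = 2.65e-05; 0.0795% of tested probes called), and 2.14 without both arrays that go against their labels (limma adjusted p = 3.32e-05). Averaged over genotypes, estradiol minus blank was 0.77 ± 0.17 (limma adjusted p = 0.00254; 6.82% called). Under estradiol, testis minus ovary line was -0.48 ± 0.24 (SE), beside the -2.85 with blank capsules. The averaged difference lost its call without background correction (0.27, limma adjusted p = 0.0613).

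**Figure D1:**
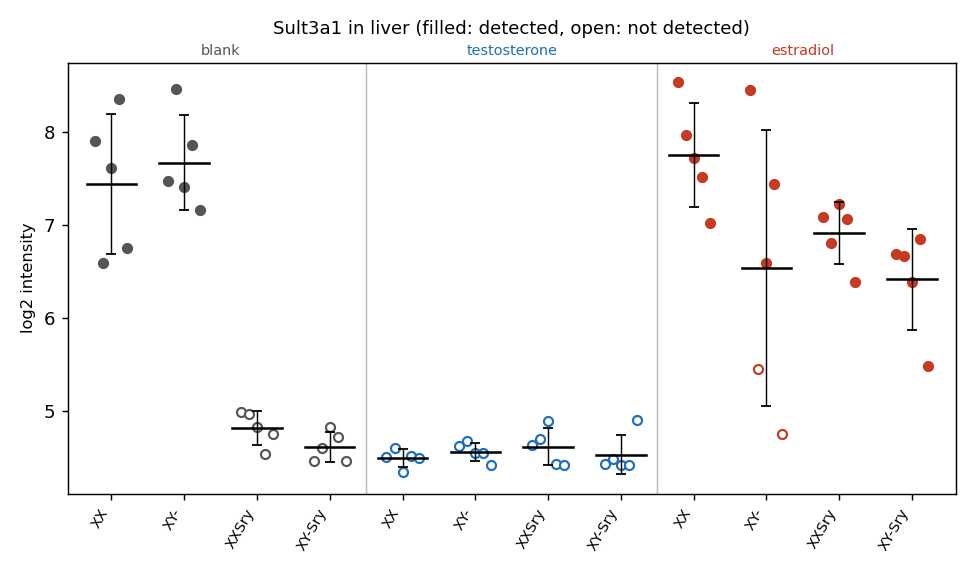
Log2 intensity of Sult3a1 in each of the 60 liver arrays, by genotype and treatment. Points are arrays, filled where detected, and lines and bars are the mean and SD of 5 arrays. The 10 ovary line blanks lie between 6.59 and 8.47, and the 10 testis line blanks and all 20 testosterone arrays lie below 5.

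The comparison of both hormones does not use the blank arrays. Testosterone minus estradiol was -2.36 ± 0.17 for Sult3a1 (SE; limma adjusted p = 1.54e-16), at least 2.53-fold, in a comparison where 18.4% of all tested probes were called. Testosterone minus blank and estradiol minus blank share their blank arrays and are given side by side only. In order of the group means, XX E, XY- B and XX B (7.76, 7.68 and 7.44) were followed by XXSry E, XY- E and XY-Sry E (6.92, 6.54 and 6.42). Neighbours within these 6 differed by at most 0.53, less than the larger of their SDs. A step of 1.60 separated them from the 6 groups at 4.49 to 4.81, in none of which the gene was detected. The mean level of 5 macrophage markers moved in the same groups. It was 7.04 to 8.34 in ovary line blanks and 6.39 to 6.96 in testis line blanks, 6.01 to 7.11 and 6.07 to 6.95 with testosterone, and 7.01 to 8.38 and 6.78 to 7.60 with estradiol. All 5 listed markers were tested, of which Marco was detected in 15 of 60 arrays, and their part in the result was not tested. Of 7 lymphocyte markers 2 were tested, Cd79b (detected in 26 of 60 arrays) and Cd3g (11 of 60), while Ms4a1 and Ccr7 were detected in 0. The mean of both tested markers was 5.27 to 6.26 in ovary line blanks and 4.61 to 5.49 in testis line blanks, 4.57 to 5.49 and 4.44 to 5.18 with testosterone, and 4.94 to 6.43 and 4.76 to 5.43 with estradiol. It was thus also lower in the testis line blanks and in the ovary line with testosterone. In the testis line it was not higher with estradiol, at 5.03 on average beside 5.14 with blank capsules. Its part in the result was not tested.

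Sult1a1, the main phenol sulfotransferase of liver, fell with testosterone in every genotype. Its level with blank capsules was 12.49, 12.48, 12.96, 12.89 and 13.29 in XX, 12.86, 12.98, 13.11, 13.07 and 13.38 in XY-, 12.89, 13.07, 13.00, 13.13 and 13.15 in XXSry. In XY-Sry blanks it was 12.90, 12.93, 13.08, 13.18 and 12.66. Under testosterone the values were 12.13, 12.16, 12.50, 11.92 and 12.27 in XX, 12.13, 12.50, 12.44, 12.35 and 12.76 in XY-, 12.02, 12.01, 12.34, 12.50 and 12.70 in XXSry and 12.25, 12.30, 12.20, 11.47 and 12.66 in XY-Sry. The treatments overlapped between 12.48 and 12.76, and otherwise the testosterone livers were the lower. The difference was -0.69 ± 0.08 (SE; limma adjusted p = 1.21e-09), a 1.62-fold lower level, and -0.70 to -0.54 within the 3 slides that held both treatments. Against estradiol it was -0.65 ± 0.08 (limma adjusted p = 6.43e-09). Estradiol minus blank was -0.05 ± 0.08, with a 95% interval from -0.21 to 0.11.

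Sult1c2, a phenol sulfotransferase, was lower with either hormone. The group means were 8.75 ± 0.22 (SD, n = 5), 8.96 ± 0.25, 9.16 ± 0.34 and 9.15 ± 0.46 with blank capsules in XX, XY-, XXSry and XY-Sry. With testosterone they were 7.79 ± 0.37, 7.90 ± 0.32, 7.56 ± 0.57 and 7.73 ± 0.73, and every testosterone mean lay below every blank mean. Testosterone minus blank was -1.26 ± 0.18 (SE; limma adjusted p = 4.63e-07), 2.4-fold lower, and -1.50 to -0.63 on the 3 shared slides. With estradiol the level was 4.94, 8.54, 8.85, 8.49 and 8.18 in XX, 8.07, 7.75, 8.92, 8.50 and 8.23 in XY-, 8.39, 8.92, 9.12, 8.90 and 8.36 in XXSry and 8.64, 8.62, 8.84, 8.64 and 8.71 in XY-Sry. The array at 4.94, XX E replicate 1, was the only 1 of 60 in which Sult1c2 was not detected, and without it the XX E mean is 8.51 ± 0.28 (n = 4) in place of 7.80 ± 1.62. Estradiol minus blank was -0.62 ± 0.18 (limma adjusted p = 0.0271), and -0.45 without that array (limma adjusted p = 0.0222). With no filter on dim probes it was not called (limma adjusted p = 0.0584). Testosterone minus estradiol was -0.64 ± 0.18 (limma adjusted p = 0.00914), and -0.57 with slide as a block, where the call was lost (limma adjusted p = 0.0628). It was also lost with median centring.

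Sult1d1, which sulfates dopamine and related amines, has 2 probes that were tested. The brighter, ILMN_2641217, was detected in 60 of 60 livers, and the dimmer, ILMN_2955850, in 50 of 60. On the brighter probe, blank means ran from 10.3 ± 0.38 (SD, n = 5) in XX to 10.6 ± 0.09 in XXSry, and testosterone means from 9.93 ± 0.12 in XX to 10.1 ± 0.19 in XY-. Testosterone minus blank was -0.42 ± 0.10 (SE; limma adjusted p = 0.00186), and negative on each of 3 shared slides, from -0.59 to -0.48. The dimmer probe gave -0.35 ± 0.12 (limma adjusted p = 0.0411). With a slide block that call was gone (-0.29, limma adjusted p = 0.059), and it also ended for 21 of the 60 arrays when they were left out singly. Over all 60 of these the difference lay between -0.39 and -0.30. Testosterone minus estradiol was -0.42 ± 0.10 on the brighter probe (limma adjusted p = 0.00172), and -0.32 with median centring, where it was not called (limma adjusted p = 0.168). On the dimmer probe it was -0.35 and called. That call was lost without background correction, with median centring, with no probe filter, and for 19 of the 60 arrays left out singly. Estradiol minus blank was near 0 on both probes, with 95% intervals from -0.21 to 0.20 and from -0.25 to 0.25. XX E replicate 1 was again the lowest of its group on the brighter probe, at 8.87 against 10.2 to 10.8 in the other 4.

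**Figure D2:**
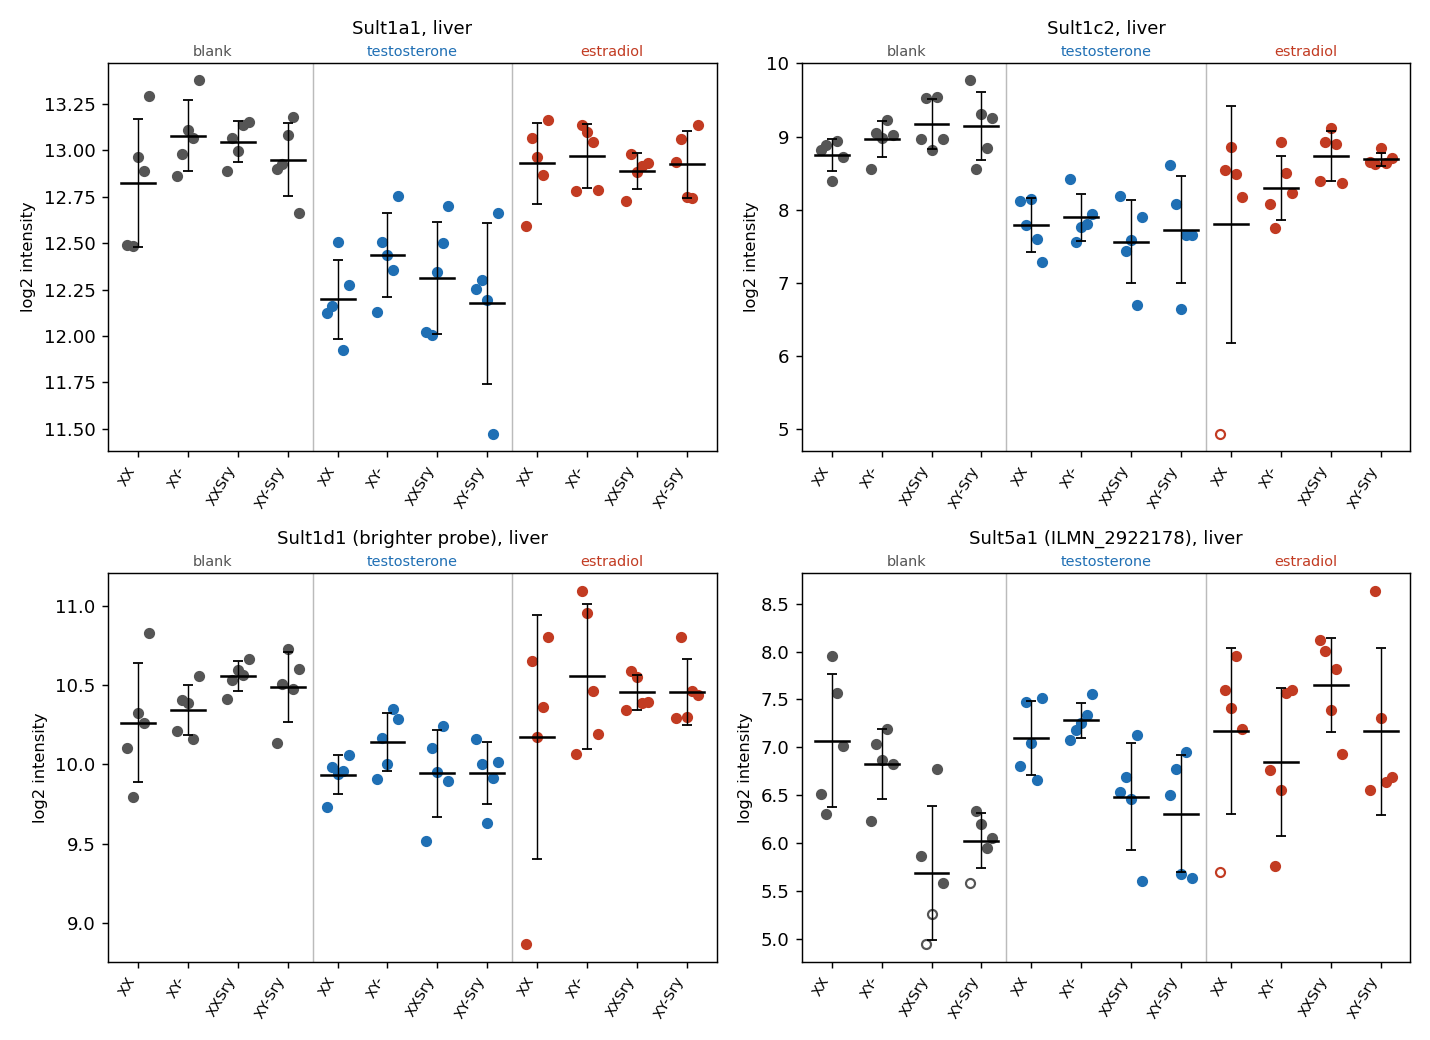
Log2 intensity of Sult1a1, Sult1c2, Sult1d1 and Sult5a1 in the 60 liver arrays, by genotype and treatment, with points for arrays (open where not detected) and the mean and SD of 5 arrays. Sult1a1, Sult1c2 and Sult1d1 are lowest in the 4 testosterone groups apart from XX E replicate 1, and Sult5a1 is lowest in the testis line blanks.

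Sult5a1 is a member with few known substrates. On ILMN_2922178 the level with blank capsules was 6.51, 6.30, 7.95, 7.57 and 7.02 in XX and 6.23, 7.04, 6.87, 7.19 and 6.82 in XY-. In the testis line it was 5.87, 4.95, 5.26, 6.78 and 5.58 in XXSry and 5.58, 6.34, 6.20, 5.95 and 6.06 in XY-Sry. The lines overlapped between 6.23 and 6.78. The testis line was lower by 1.10 on the log2 scale (difference -1.10 ± 0.26, SE; limma adjusted p = 0.0096), and lower on each of 5 slides, from -1.61 to -0.85. The second probe, ILMN_2731020, gave -0.88 ± 0.28 and was not called (limma adjusted p = 0.11). It was called with slide as a random block (limma adjusted p = 0.046), with array weights (-0.97, limma adjusted p = 0.0221) and with median centring (limma adjusted p = 0.0313). The macrophage and lymphocyte markers given beside Sult3a1 were also lower in the testis line blanks, and their part in this difference was not tested. With testosterone the level was 7.19 ± 0.30 (SD, n = 10) in the ovary line, beside 6.95 ± 0.54 in its blanks, and 6.39 ± 0.56 in the testis line, beside 5.85 ± 0.54. Testosterone minus blank was 0.39 ± 0.18 (SE) and was not called (limma adjusted p = 0.132).

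With estradiol, Sult5a1 (ILMN_2922178) was at 7.41 ± 0.72 (SD, n = 10) in the testis line and at 7.01 ± 0.79 in the ovary line. The lowest, median and highest values were 6.56, 7.35 and 8.64 in the testis line and 5.70, 7.30 and 7.95 in the ovary line, so that the lines overlapped widely. Estradiol minus blank was 1.56 ± 0.26 (SE) in the testis line and 0.06 ± 0.26 in the ovary line. Over the 4 genotypes it was 0.81 ± 0.18 (limma adjusted p = 0.00277), and 0.64 ± 0.20 on the second probe (limma adjusted p = 0.0408). With slide as a block both calls were lost, at 0.62 (limma adjusted p = 0.071) and 0.32 (limma adjusted p = 0.438), and on the second probe the call also ended for 21 of the 60 arrays when they were left out singly. Over all 60 of these the difference lay between 0.57 and 0.74. The difference of the estradiol effect between lines was 1.50 ± 0.37 and was not called (limma adjusted p = 0.0801). It was called without both arrays that go against their labels, at 1.59 (limma adjusted p = 0.0244), and with array weights, at 1.55 (limma adjusted p = 0.0193). With slide as a fixed or a random block it was also called, at 1.50 (limma adjusted p = 0.0459 and 0.0269).

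The other members gave little signal in liver. Sult1b1, which sulfates thyroid hormone and other phenols, was detected in 17 of 60 arrays on ILMN_2670929. Its group means ran from 4.99 to 5.45, none of its 7 comparisons was called or had an unadjusted p under 0.05, and estradiol minus blank was -0.11 ± 0.15 (SE). Its second probe was detected in no array. Sult1e1, the estrogen sulfotransferase, was detected in 1 liver of 60, XY- E replicate 2, at 6.18. That liver is also the array at 5.45 for Sult3a1. Sult1c1 and all 3 probes of Sult2b1, the cholesterol and hydroxysteroid sulfotransferase known from skin, were detected in 0 of 60 livers, with no value above 5.64.

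Counted over the family, 5 of 8 tested liver probes (4 genes) were called for testosterone minus blank and all were lower, where 19.1% of all tested probes were called. Their median difference was -0.38, against 0.00 over all tested probes. For testosterone minus estradiol 5 of 8 (4 genes) were called beside 18.4%, all lower, with a median of -0.47 against 0.03. With median centring in place of quantile normalisation only 2 of 8 were called there, and the median of all probes moved to 0.11. For estradiol minus blank 4 of 8 (3 genes) were called beside 6.82%, 3 higher, among them both probes of Sult5a1, and 1 lower. For the lines with blank capsules 2 of 8 were called beside 1.75%, both lower in the testis line. For testosterone by line and estradiol by line 1 of 8 was called each, Sult3a1, beside 0.124% and 0.0795%. For the sex chromosomes (XX minus XY- groups) 0 of 8 were called by limma, beside 0.186% of all tested probes, and 1, Sult3a1, had an unadjusted p under 0.05 (0.28 ± 0.14, SE; limma adjusted p = 0.999). The 95% interval of the sex chromosome difference was -0.19 to 0.08 for Sult1a1 and -0.45 to 0.15 for Sult1c2.

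**Figure D3:**
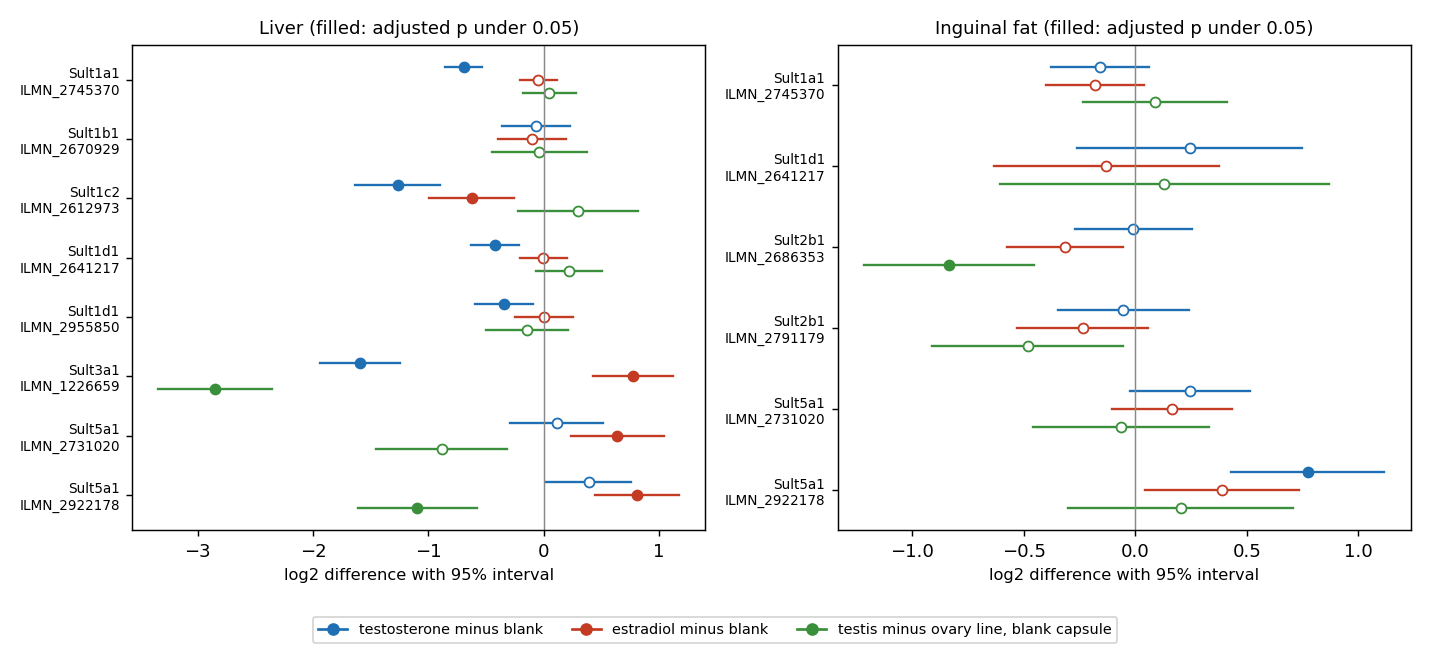
Log2 differences with 95% intervals of every tested sulfotransferase probe in liver (left) and inguinal fat (right), for each hormone against blank and for the testis against the ovary line with blank capsules. Filled points had a limma adjusted p under 0.05. In liver the filled testosterone points all lie below 0, and in fat 2 points are filled.

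The genes that supply sulfate and PAPS were followed as a list of 15, of which 13 were on the array and 8 (14 probes) were tested in liver. For testosterone minus blank 3 of 14 probes were called, beside 19.1% of all tested probes. Papss2, a synthase of PAPS, fell by 0.74 on the log2 scale (-0.74 ± 0.18, SE; limma adjusted p = 0.002). Bpnt1, which breaks down the PAP left after sulfation, rose on 2 of its 4 probes, by 0.43 ± 0.09 (limma adjusted p = 0.000185) and 0.32 ± 0.09 (limma adjusted p = 0.0054). For testosterone minus estradiol 1 of 14 was called, beside 18.4% of all tested probes. This was Bpnt1 at 0.29 ± 0.09 (limma adjusted p = 0.00968). In the other 5 comparisons 0 of 14 were called by limma, and 0 to 2 had an unadjusted p under 0.05. Further old symbols of sulfotransferases were looked up after the values were seen. Of these, EG629219 and Gm766 were detected in 0 of 60 livers and 0 of 55 fat arrays. The other, 2810007J24Rik, is listed by RefSeq as a synonym of Sult2a8. In liver 2810007J24Rik rose with testosterone, by 0.66 ± 0.22 over blank (limma adjusted p = 0.0247) and 1.12 ± 0.22 over estradiol (limma adjusted p = 7.21e-05). That is the direction opposite to the 4 members that fell. Sult4a1, the only other symbol beginning with Sult, was detected in 0 of 60 livers and 1 of 55 fat arrays.

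Over the 12 group means of liver, the tested gene most like Sult3a1 by Pearson's r was A1bg (r = 0.983), followed by Hist1h2ao (0.963) and Orm1 (0.946). Those most like Sult1c2 were Serpina6 (0.986), Ugt1a6a (0.981) and Papss2 (0.966). Those most like Sult5a1 (ILMN_2731020) were Hsd17b2 (0.924), Oprs1 (0.901) and Zdhhc12 (0.837). These are descriptions over 12 means from 1 set of arrays.

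In inguinal fat the family was sparser. Sult1a1 was detected in all 55 arrays, at group means between 12.4 and 13.0, and was not called in any of 7 comparisons, in none of which the unadjusted p was under 0.05. Testosterone minus blank was -0.16 ± 0.11 (SE), with a 95% interval from -0.38 to 0.06. The tissues were normalised separately, and the difference between them was not tested. Sult3a1, Sult1b1, Sult1c1 and Sult1e1 were detected in 0 of 55 fat arrays.

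Sult2b1 in fat differed between the lines. On ILMN_2686353 the level with blank capsules was 6.41, 7.11 and 7.41 in XX (n = 3) and 5.59, 6.50, 6.06, 6.06 and 7.16 in XY- (n = 5). In the testis line it was 5.38, 5.42, 5.46, 6.08 and 5.98 in XXSry and 5.62, 6.42, 5.43 and 6.18 in XY-Sry. The lines overlapped between 5.59 and 6.42, and 6 of 8 arrays against 4 of 9 were detected. The testis line was lower by 0.84 on the log2 scale (-0.84 ± 0.19, SE; limma adjusted p = 0.00509; 1.8% of tested fat probes called), with negative values on each of 5 shared slides, from -1.57 to -0.17. Without XX B replicate 3 it was -0.73 and not called (limma adjusted p = 0.056), and with median centring it was -0.79 and not called (limma adjusted p = 0.0577). The second tested probe, ILMN_2791179, gave -0.48 ± 0.21 and was not called (limma adjusted p = 0.576), and was detected in only 8 of 55 arrays.

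With testosterone Sult2b1 (ILMN_2686353) was at 6.86 ± 0.35 (SD, n = 9) in the ovary line and detected in 8 of 9 arrays. In the testis line it was at 5.55 ± 0.36 (n = 10) and detected in 0 of 10, at least 1.70-fold lower, and no array of 1 line overlapped the other. This difference between lines under testosterone was not tested. The second probe, ILMN_2791179, was at 5.65 ± 0.50 (SD, n = 9) and 5.47 ± 0.53 (n = 10) there, with overlapping ranges. With estradiol ILMN_2686353 was at 5.89 ± 0.37 (n = 10) in the ovary line and 5.91 ± 0.33 (n = 9) in the testis line, and these overlapped fully. In the ovary line, estradiol minus blank was -0.74 ± 0.18 (SE) and in the testis line 0.11 ± 0.18. The difference of these, 0.84 ± 0.26, was not called (limma adjusted p = 0.154). Neither was testosterone by line, at -0.46 ± 0.26 (limma adjusted p = 0.9997). Of 9 epithelial markers listed, 3 were on the array and tested (Krt7, Cldn3 and Cldn7), and their mean also differed between lines. It was 6.45 to 8.55 in ovary line blanks and 4.81 to 6.87 in testis line blanks, 7.33 to 8.77 and 5.10 to 7.19 with testosterone, and 7.82 to 8.86 and 5.07 to 6.64 with estradiol. Under estradiol the marker means of the lines did not overlap. The Sult2b1 levels under estradiol are those given above, and the part of epithelium in them was not tested.

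Sult5a1 in fat rose with testosterone on ILMN_2922178. The level with blank capsules was 6.58, 5.51 and 5.81 in XX, 4.83, 5.98, 6.27, 5.35 and 5.73 in XY-, 6.52, 6.44, 5.11, 6.61 and 5.95 in XXSry. The XY-Sry blanks were at 6.01, 6.10, 5.85 and 5.55. Under testosterone the values were 6.15, 7.69, 7.34 and 6.66 in XX, 6.45, 6.74, 6.39, 7.48 and 5.73 in XY-, 6.42, 6.14, 6.99, 6.90 and 6.05 in XXSry and 7.14, 6.86, 6.71, 6.94 and 5.71 in XY-Sry. It was detected in 16 of 19 testosterone arrays and in 6 of 17 blanks, and the ranges overlapped between 5.71 and 6.61. The difference was 0.77 ± 0.17 (SE; limma adjusted p = 0.00378; 4.75% of tested fat probes called), higher in 4 of 4 genotypes, called in all 9 alternatives other than leaving out arrays, and 0.99 and 1.54 on the 2 slides that held both treatments. With scores for liver, muscle and lymphocyte markers as covariates it was 0.57 (limma adjusted p = 0.00566). The second probe, detected in 3 of 55 arrays, gave 0.24 ± 0.13 and was not called (limma adjusted p = 0.33). Estradiol minus blank was 0.39 ± 0.17 on ILMN_2922178 and was not called (limma adjusted p = 0.107).

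**Figure D4:**
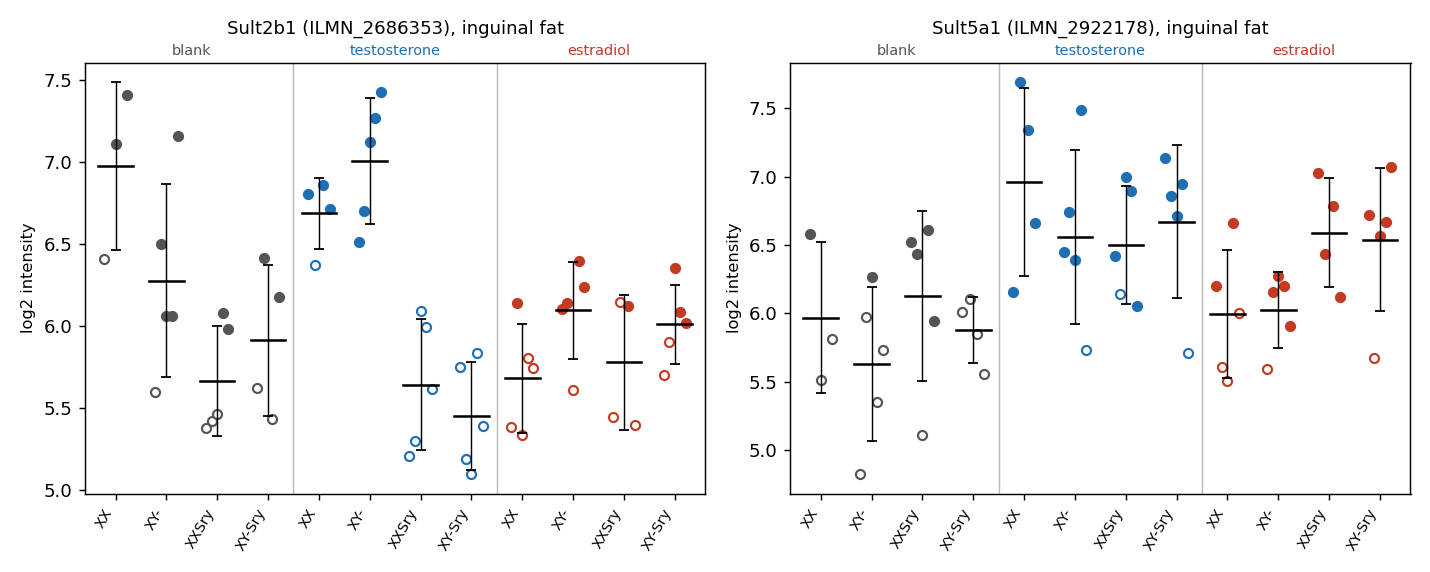
Log2 intensity of Sult2b1 and Sult5a1 in the 55 inguinal fat arrays, by genotype and treatment, with points for arrays (open where not detected) and the mean and SD of 3 to 5 arrays. With testosterone the arrays of the lines do not overlap for Sult2b1 (ILMN_2686353), a difference given without a test. Sult5a1 (ILMN_2922178) is higher in all 4 testosterone groups than in their blanks.

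Sult1d1 in fat was detected in 3 of 55 arrays on ILMN_2641217, the brighter probe in liver but not in fat by the median. These were XY-Sry T replicate 1 at 9.57, XX T replicate 4 at 6.67 and XXSry B replicate 1 at 6.51. The other 52 arrays lay between 4.57 and 5.33. These 3 arrays also had the highest means of 6 hepatocyte markers, at 14.1, 11.8 and 11.8, where the other arrays lay at or below 10.5. Of those 6 markers, Apoc3 was detected in 55 of 55 fat arrays, Apoa2 in 50, Apoa1 in 36, Ttr in 35, Ahsg in 22 and Serpina1a in 7. The liver genes Fgb and Tat, which are not among the 6, were each detected in 1 of 55. Sult1c2, a liver member, was detected in 1 fat array, XY-Sry T replicate 1, at 7.36. The second Sult1d1 probe, ILMN_2955850, was detected in 2 of 55 fat arrays, too few to be tested. These were 1 blank array of each line, and 0 of 10 testis line testosterone arrays were detected on it. In liver this second probe was much dimmer, with a median of 5.87 beside 10.3, and was detected in 50 of 60 arrays. None of the comparisons of ILMN_2641217 in fat was called, and the part of liver RNA in these values was not tested.

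**Figure D5:**
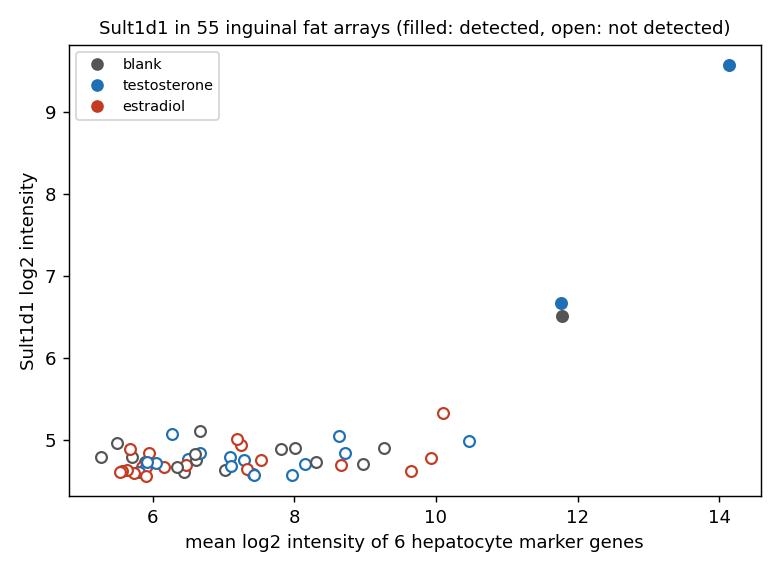
Log2 intensity of Sult1d1 (ILMN_2641217) against the mean log2 intensity of 6 hepatocyte marker genes in the 55 inguinal fat arrays, coloured by treatment and filled where detected. The 3 arrays with a detected value, at 9.57, 6.67 and 6.51, are those with the highest marker means.

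Over the family in fat, 1 of 6 tested probes was called for the lines with blank capsules (Sult2b1, beside 1.8% of all tested probes) and 1 for testosterone minus blank (Sult5a1, beside 4.75%). For estradiol minus blank 0 of 6 were called by limma, where 20.5% of all tested probes were called, and 2 had an unadjusted p under 0.05, Sult2b1 (ILMN_2686353) at -0.31 ± 0.13 (SE) and Sult5a1 (ILMN_2922178) at 0.39 ± 0.17. For testosterone minus estradiol 0 of 6 were called beside 17.3%, with the same 2 probes at an unadjusted p under 0.05. For the sex chromosomes 0 of 6 were called beside 0.137%, and none had an unadjusted p under 0.05. For testosterone by line 0 of 6 were called beside 0.0137%, and none had an unadjusted p under 0.05. For estradiol by line 0 of 6 were called beside 0.813%, and 1 had an unadjusted p under 0.05, Sult2b1.

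Of the sulfate and PAPS list, 10 genes (16 probes) were tested in fat. For estradiol minus blank 4 of 16 probes were called, beside 20.5% of all tested probes. Slc26a2, a sulfate transporter of the cell surface, rose by 0.71 ± 0.13 (SE; limma adjusted p = 2.86e-05), and Slc13a4, a sodium-coupled sulfate transporter, fell by 0.84 on the log2 scale (limma adjusted p = 0.00024). Papss2 fell by 0.64 (limma adjusted p = 0.00422). Bpnt1 was the other called probe. It fell by 0.44 (limma adjusted p = 0.0182) and is named although it lies outside the 3 largest, with its value known. For testosterone minus estradiol 4 of 16 were called beside 17.3%, with Papss2 (0.57), Slc26a6 (0.47) and Bpnt1 (0.41) higher with testosterone and Slc26a2 (-0.65) lower. In the other 5 comparisons 0 of 16 were called by limma, and 0 to 4 had an unadjusted p under 0.05. Over the 12 group means of fat, the genes most like Sult2b1 were 2700084L06Rik (r = 0.944), Agps (0.943) and Nxf7 (0.938). Those most like Sult5a1 (ILMN_2922178) were Map1lc3a (0.929), Sash1 (0.923) and Snx21 (0.900), and those most like Sult1d1 were Kng2 (0.989), Abcb11 (0.979) and Pdzk1 (0.976). Sult1d1 (ILMN_2641217) was detected in 3 of 55 fat arrays, and the groups of these arrays held its highest means. The highest was XY-Sry T at 5.77 ± 2.13 (SD), with 1 array at 9.57. Its r values thus rest largely on these few arrays.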

How the data were processed

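Each deposited table gives 3 columns per array: the mean bead signal of every probe (per the file headers an intensity, not on a log scale), its bead error, and the detection p-value. The deposited intensity values had lowest signals of 89.1 in liver and 92.6 in fat, and their medians differed between arrays. The submitters' processing notes name lumi, with no version. What it did to these tables is not given in the sources used here. The 115 bead error columns were not used.

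Arrays were grouped by the labelled genotype, treatment and tissue. Replicate numbers only name an array. The tissues were processed apart, with limma 3.58.1 (R 4.3.3). Its nec function took the background from the detection p-values and added 16, and quantile normalisation and log2 followed. A probe was tested if detected in as many arrays as the smallest group holds (5 in liver, 3 in fat), which left 11317 and 14636 of 25697. A mean per group was fitted with lmFit and eBayes. The 7 contrasts weight groups equally, so in fat they depart slightly from differences of arm means. Differences within 1 line, and those between lines under 1 hormone, carry an SE or a bound and no test. The code was tested on simulated data.

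Each tissue lies on 8 slides, every one without at least 1 treatment. Symbols are the array's own and can be old. Probes of close relatives such as Sult1c1 and Sult1c2 can share signal, which was not tested. The members, the sulfate list and the markers were chosen with earlier results of these data known. Named are all members, up to 3 called probes of the sulfate list per comparison, and the 3 genes of highest r for the 3 members with the widest group means. Alternatives changed background correction, the added constant (50), centring, the probe filter, slide, array weights, doubtful arrays, marker covariates (fat) and each array in turn.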

Additional observations from a re-analysis of the deposited data

Results flagged for a closer look

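Among 162 sets of 4 or 5 arrays (1 probe in 1 group), 11 held an array far from the others, or 6.79%, where chance gives about 5%. In liver, XX E replicate 1 stood apart for Sult1c2, at 4.94 beside 8.18 to 8.85, and for Sult5a1 (ILMN_2731020), at 5.57 beside 7.34 to 7.91. Sult1d1 (ILMN_2955850) was at 5.36 in XY-Sry E replicate 5, beside 6.13 to 6.42. Sult5a1 (ILMN_2731020) was at 7.53 in XY- T replicate 4, beside 7.01 to 7.14. Sult3a1 was at 4.90 in XY-Sry T replicate 5, beside 4.42 to 4.48, and was not detected in any of these 5 arrays.

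In fat, all outlying values were those of Sult1d1 (ILMN_2641217). The detected ones were 9.57 in XY-Sry T replicate 1 (others 4.70 to 5.08), 6.67 in XX T replicate 4 (others 4.58 to 4.74) and 6.51 in XXSry B replicate 1 (others 4.59 to 4.91). Those not detected were 5.33 in XX E replicate 1 (others 4.60 to 4.64), 4.97 in XY- B replicate 4 (others 4.68 to 4.75) and 4.95 in XY-Sry E replicate 5 (others 4.63 to 4.69).

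The effect of either hormone on liver Sult3a1 differed between the lines by limma's interaction test, by 2.89 for testosterone and by 2.37 for estradiol (testis minus ovary line). In the testis line neither blank nor testosterone arrays were above background, so a fall with testosterone could not be seen there. The 2.89 thus rests on the level in ovary line blanks. Both differences use the same blank arrays.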

How the results depend on the processing

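The member probe differences that were run through the alternatives kept their direction in each. Single genes of the sulfate and PAPS list were not run through the alternatives. Of the liver members, estradiol minus blank called 4 probes, and 2 with no probe filter or with slide as a block. Testosterone minus estradiol called 5, and 2 with median centring. Estradiol by line called 1, and 2 with slide as a fixed or random block, with array weights or without both arrays that go against their labels. Leaving out 1 array at a time gave 1 to 2, with 2 without XXSry B replicate 4, XY- E replicate 4 or XY- E replicate 5. In fat, the lines with blank capsules called 1, and 0 with median centring. Leaving out 1 array at a time gave 0 to 1, with 0 without XX B replicate 3. Estradiol minus blank called 0, but 1 with median centring, 2 with array weights and 1 with marker covariates. Over all 14636 tested fat probes it called 3003, and 1936, 4417 and 3571 in the same order of settings. Of the members it called 0 to 1 with 1 array left out, with 1 without XY-Sry B replicate 3, XY- B replicate 1 or XX B replicate 1. Testosterone minus estradiol called 0, but 1 without background correction, with no filter, with slide as a block, with array weights or with covariates. Of all fat probes it called 2536, and 2577, 2325, 1692, 3527 and 2131 in the same order of settings. Of the members it called 0 to 1 with 1 array left out, with 1 without XY-Sry T replicate 5 or XX T replicate 1. Estradiol by line called 0, and 1 with array weights. The cause of these changes was not tested.

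Over all tested probes, median centring moved the count of calls in liver from 2162 to 1370 (testosterone minus blank), 772 to 1392 (estradiol minus blank) and 2080 to 1183 (testosterone minus estradiol). In fat it moved the same comparisons from 695 to 306, 3003 to 1936 and 2536 to 1630. The share of calls that were higher moved in liver from 42.8% to 16.5%, from 52.1% to 8.55% and from 42.3% to 53.3%, and in fat testosterone minus estradiol from 44.8% to 32.2%. For the liver lines 198 calls became 319 with slide as a block, 333 as a random block and 369 with array weights. For liver testosterone by line 14 became 24, 25 and 26. For liver estradiol by line 9 became 36, 47 and 36, and 37 without the doubtful arrays and 4 with no filter. With array weights the fat counts rose from 20 to 1148 (sex chromosomes), 263 to 467 (lines), 695 to 1064 (testosterone minus blank) and 119 to 274 (estradiol by line). They also rose from 3003 to 4417 (estradiol minus blank) and from 2536 to 3527 (testosterone minus estradiol). Fat testosterone minus blank gave 256 with slide as a block and 1144 with covariates, and testosterone by line 0 to 2.

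No paired analysis was possible because the labels give no replicate numbers that pair arrays across groups. Values of probes that were not detected are only bounds.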
